A study of Rattus norvegicus with 8 samples.

Results

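Phosphatidylcholine and phosphatidylethanolamine, the main phospholipids of liver membranes, are made by enzymes that 10 genes represent here: Pemt, Chka, Chkb, Pcyt1a, Chpt1, Cept1, Etnk1, Pcyt2, Ptdss1 and Pisd. The genes were chosen by name, as the non-control probes whose gene name in the array files equals 1 of the 10. That rule used no measured value of theirs, but the 10 were named with earlier results of these data known. All 10 had a probe, among 26442 genes with a non-control spot, and all 10 passed the filter on dim probes, among 14854 genes tested. RNA came from whole livers of Wistar rats aged 21 days, 4 from dams on a standard diet (control) and 4 from dams on a diet lacking vitamin B12 and folates (methyl donor deficient). The dams had received these diets from a month before pregnancy and kept them until their pups were weaned. Of the control livers 1 came from a male and 3 from females, and of the deficient livers 2 came from males and 2 from females. The labels name neither dam nor litter, and p-values therefore cover only the spread among these 8 pups, some of which may be littermates. The question of the comparison was how the methylation route to phosphatidylcholine, represented by Pemt, and the choline route stood in livers of pups whose dams lacked methyl donors.

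Liver makes phosphatidylcholine in 2 ways. In the choline route, choline is phosphorylated by a choline kinase (Chka, Chkb), activated to CDP-choline by Pcyt1a, the rate-limiting step, and joined to diacylglycerol by Chpt1 or Cept1. In the methylation route, which is largely a property of hepatocytes, Pemt adds methyl groups from S-adenosylmethionine to phosphatidylethanolamine, whose own sources are the parallel ethanolamine route (Etnk1, Pcyt2, Cept1) and the mitochondrial decarboxylation of phosphatidylserine by Pisd. Vitamin B12 and folate serve a methylation that regenerates methionine, the precursor of S-adenosylmethionine.

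The array probes are shown because every value below is the brightness of such a 60-base sequence, written as it runs along the transcript, with positions in rn4 as the files give them. The Pemt probe lies at chr10:46302830-46302889 on the minus strand. The Chkb probe lies on the minus strand at chr7:127747008-127747215, a span of 208 bases that includes a gap of 148, so it reads across joined exons. The Etnk1 probe shown lies at chr4:181099613-181099672 on the plus strand and was the dimmer of 2. Of the Chka probe, at chr1:206418447-206418506 on the plus strand, the first 30 bases are shown.
Pemt: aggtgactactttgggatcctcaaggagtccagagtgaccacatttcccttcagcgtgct
Chkb: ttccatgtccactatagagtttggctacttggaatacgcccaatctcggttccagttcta
Etnk1: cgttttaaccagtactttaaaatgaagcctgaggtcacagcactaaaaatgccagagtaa
Chka: gaactctgaattgttttgtgcacatatttc

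The promoters of the 4 genes with a called difference are shown because they differ in their content of CpG, the dinucleotide at which DNA is methylated in mammals, with each CpG in capitals. They are the 250 bases before the RefSeq start in GRCr8. RefSeq's table held 10 promoters for 9 of the genes. The Pemt promoter (chr10:45341948-45342197, minus strand) has 4 CpG, more than 37.4% of the 33469 promoters in the table, whose median is 5. That of Chka (chr1:210505865-210506114, plus strand) has 26, more than 91.4% of promoters. The Chkb promoter (chr7:122383950-122384199, minus strand) has 12 and the Etnk1 promoter (chr4:177856893-177857142, plus strand) has 32.
Pemt: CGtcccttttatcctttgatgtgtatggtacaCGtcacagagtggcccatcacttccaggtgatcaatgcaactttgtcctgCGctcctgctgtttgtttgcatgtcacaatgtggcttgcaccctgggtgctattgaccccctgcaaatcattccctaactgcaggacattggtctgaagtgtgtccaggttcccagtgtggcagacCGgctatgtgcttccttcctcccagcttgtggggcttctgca
Chka: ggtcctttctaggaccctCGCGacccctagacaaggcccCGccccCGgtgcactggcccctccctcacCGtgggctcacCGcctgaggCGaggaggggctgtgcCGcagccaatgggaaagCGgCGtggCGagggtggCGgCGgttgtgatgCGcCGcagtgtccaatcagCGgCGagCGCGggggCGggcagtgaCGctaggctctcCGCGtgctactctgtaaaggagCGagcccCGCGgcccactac
Chkb: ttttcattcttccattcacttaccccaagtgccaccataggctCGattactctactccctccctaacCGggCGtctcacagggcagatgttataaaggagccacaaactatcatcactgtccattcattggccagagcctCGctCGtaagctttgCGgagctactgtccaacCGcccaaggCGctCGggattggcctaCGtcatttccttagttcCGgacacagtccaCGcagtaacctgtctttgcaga
Etnk1: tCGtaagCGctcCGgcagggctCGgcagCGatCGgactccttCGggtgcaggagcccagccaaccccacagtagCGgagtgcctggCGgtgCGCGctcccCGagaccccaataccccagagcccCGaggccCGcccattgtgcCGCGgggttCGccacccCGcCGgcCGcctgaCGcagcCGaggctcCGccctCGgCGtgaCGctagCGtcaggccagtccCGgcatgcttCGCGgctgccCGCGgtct
Among the other genes the promoters of Pcyt1a, Chpt1, Cept1 and Pcyt2 hold 24, 25, 24 and 20 CpG, and those at the 2 starts of Pisd hold 22 and 5. Motifs were searched on both strands. The GC box GGGCGG was found in a promoter of each matched gene other than Pemt, against 30.5% of all promoters, and CCAAT in Pemt, Chka, Chkb, Etnk1, Pcyt2 and Pisd, against 34.0%. A sterol element written TCACNCCAC was found in Pcyt1a, against 0.974% of all promoters. These matches describe letters only, and DNA methylation was not measured in the files used here.

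Median spot signals of the 8 livers lay between 152.5 and 299 over median backgrounds of 33 to 58, and 59.1% to 65.5% of spots were well above background. Each of 4 arrays carried 1 control and 1 deficient liver in opposite dyes. Array 1 held control 1 and deficient 3, array 2 control 3 and deficient 1, array 3 control 2 and deficient 4, and array 4 control 4 and deficient 2. All 8 hepatocyte markers on the list were tested, with mean log2 levels between 16.86 and 17.92, so the tissue matched its label. Of 10 skeletal muscle markers, Acta1 and Tnni2 passed the filter, and their mean log2 level was 10.33 at its highest, in deficient 3, which exceeded its array partner by 2.50, against 0.09, 0.29 and 0.07 on arrays 2 to 4.

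Pemt fell in the deficient livers, while Chka, Chkb and Etnk1, kinases that start the choline or the ethanolamine route, rose. Etnk2, a further ethanolamine kinase that is not among the 10, fell by 0.69 on the log2 scale. In log2 terms, deficient minus control ± SE of the fit over 4 livers a group, the differences were -0.69 ± 0.17 for Pemt, 1.14 ± 0.30 for Chka, 0.56 ± 0.11 for Chkb and 0.41 ± 0.11 for Etnk1. The other genes, Pcyt1a, Chpt1, Cept1, Pcyt2, Ptdss1 and Pisd, did not pass the test, at -0.50 to -0.06. A call means a limma p-value adjusted by Benjamini-Hochberg over all genes tested below 0.05. By this rule 4 of the 10 genes were called, 3 higher and 1 lower. Of all genes tested 11.1% were called, 4.52% higher and 6.58% lower. The median difference of the 10 was -0.25, against 0.01 over all genes. An unadjusted limma p under 0.05 was found for 6 of the 10 and for 4109 of the 14854 genes tested. The control and deficient groups did not overlap for 2 of the 10, Pemt and Chkb, against 11.3% of all genes tested.

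**Figure D1:**
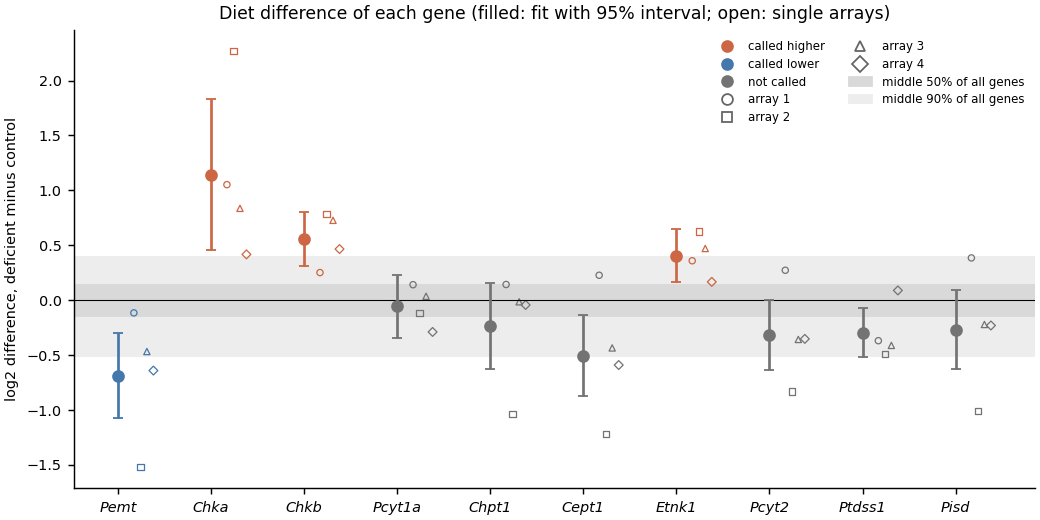
Log2 difference, deficient minus control, of each gene. Filled points are the limma fit with its 95% interval, open symbols the difference on each of the 4 arrays, and grey bands the middle 50% and 90% of all genes tested. Pemt lies below 0 and Chka, Chkb and Etnk1 above 0 on all 4 arrays, and the array 2 square is the farthest from 0 for 9 of the 10 genes.

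Pemt encodes phosphatidylethanolamine N-methyltransferase, the enzyme of the methylation route. The log2 level of its probe was 14.49, 14.90, 14.73 and 14.77 in control livers 1 to 4 and 13.21, 14.13, 14.37 and 14.43 in deficient livers 1 to 4. Every deficient liver was below every control liver, and deficient 1 was the lowest by far. The group means were 14.72 ± 0.17 and 14.04 ± 0.57 (SD, n = 4 each), a 1.61-fold lower level (limma adjusted p = 0.0385). Within arrays 1 to 4 the difference was -0.12, -1.52, -0.47 and -0.64. In females the control levels ran from 14.73 to 14.90 and the deficient levels were 13.21 and 14.37, and in males the control was at 14.49 and the deficient levels were 14.13 and 14.43. Beside this, 5 of 8 hepatocyte markers (Fgb, Tf, Hp, Ttr and Serpina1) were called lower and their list's median was -0.75. Of the markers not called, Alb was at -1.01, Apoh at -0.70 and Apoa1 at 0.35. The list's mean level ran from 17.62 to 17.92 in control and from 16.86 to 17.48 in deficient livers, and its part in the result was not tested. In whole liver RNA, fewer cells of a type and less RNA per cell cannot be told apart. The direction held in all 26 alternatives, some of which could not change it, but the call in 10. It ended without control 1 (limma adjusted p = 0.104), control 2 (0.151), control 3 (0.162), deficient 3 (0.0533) or deficient 4 (0.126) and without array 1 (0.0881), array 2 (0.0505) or array 3 (0.247), and the difference without deficient 1 was -0.45.

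Chka encodes choline kinase alpha, which phosphorylates choline as the entry to the choline route. In log2 units it stood at 10.37, 9.45, 9.47 and 9.69 in control livers 1 to 4. In deficient livers 1 to 4 they were 11.74, 10.11, 11.42 and 10.29. The groups overlapped, since control 1 lay above deficient 2 and deficient 4, but each deficient liver exceeded the control on its own array, by 1.05, 2.27, 0.84 and 0.42 on arrays 1 to 4. The means were 9.74 ± 0.43 and 10.89 ± 0.81 (SD, n = 4 each), a 2.21-fold higher level (limma adjusted p = 0.0459). The female deficient livers, at 11.42 and 11.74, stood above the male deficient livers, at 10.11 and 10.29, and the male control, at 10.37, above the female controls, at 9.45 to 9.69. Deficient 3, in which the 2 muscle markers measured of 10 were highest, was among the high livers, and the part of muscle RNA in this was not tested. The direction held in all 26 alternatives, some of which could not change it, and the call in 7. Among the 12 omissions of a liver or an array the call held without deficient 2 (0.00386) and without array 4 (0.00695), and in the other 10 the limma adjusted p ran to 0.215, reached without array 3. Without array 2 the difference was 0.68 (limma adjusted p = 0.121), and without deficient 1 it was 0.76 (0.0707).

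Chkb encodes choline kinase beta, the isoform known for its need in skeletal muscle. Control livers 1 to 4 had log2 levels of 9.76, 9.78, 9.79 and 9.70, and deficient livers 1 to 4 had 10.58, 10.16, 10.01 and 10.50. The controls lay within a narrow range and all deficient livers above it. The means were 9.76 ± 0.04 and 10.31 ± 0.27 (SD, n = 4 each), a 1.47-fold higher level (limma adjusted p = 0.0164). The within-array differences were 0.25, 0.79, 0.73 and 0.47 on arrays 1 to 4. The call held in 18 of 26 alternatives. It ended without control 1 (limma adjusted p = 0.0583), control 2 (0.074), control 3 (0.0936) or deficient 4 (0.0751) and without array 2 (0.0642) or array 3 (0.164).

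Chkb adjoins Cpt1b, the muscle isoform of carnitine palmitoyltransferase 1, in RefSeq's gene order, and the probes of both map to the minus strand. Cpt1b rose by 3.72 ± 0.32 (limma adjusted p = 0.00103), read by a probe at chr7:127737188-127737247 (rn4). Its log2 levels were 8.06 to 8.61 in control livers and 12.69, 12.66, 10.39 and 12.47 in deficient livers 1 to 4, and for both genes deficient 3 was the lowest deficient liver. A further Cpt1b probe, nearer to Chkb at chr7:127743961-127744020, was well above background in 3 of 8 livers and differed by 0.32 ± 0.27 (limma adjusted p over all probes = 0.614). Whether transcripts of 1 gene reach into the other was not tested.

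**Figure D2:**
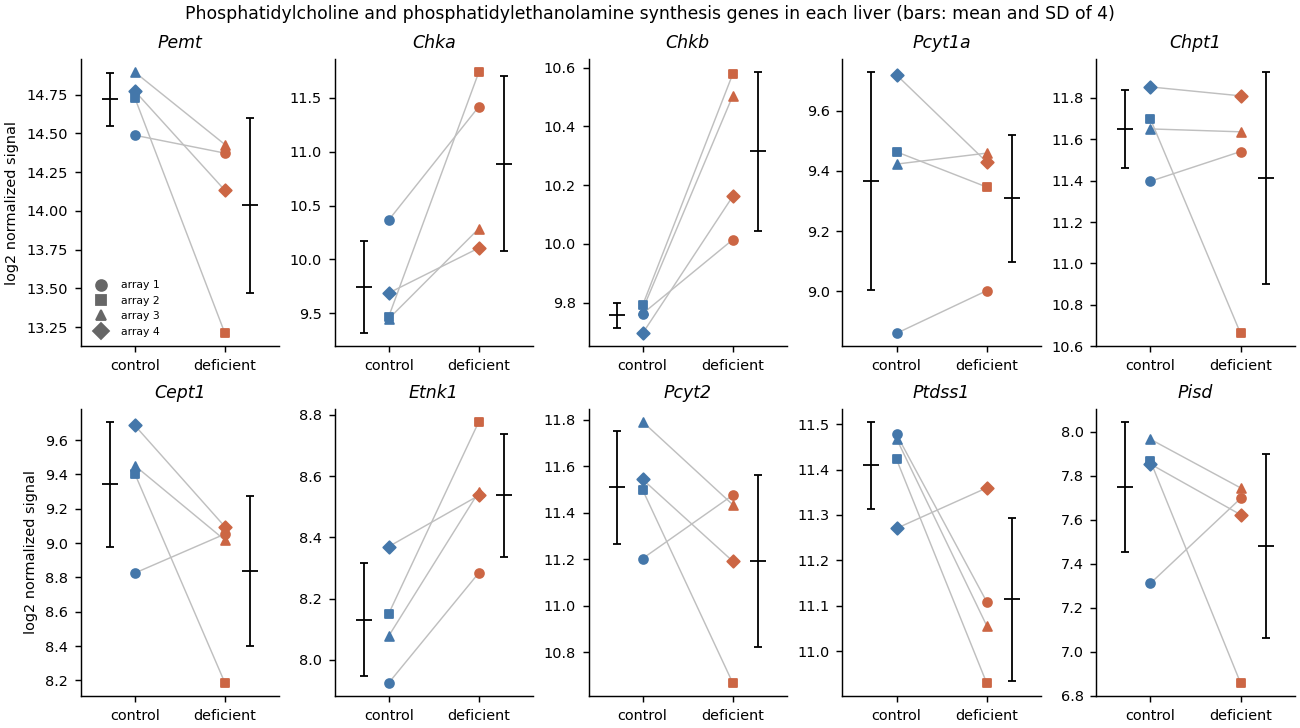
Log2 normalized signal of the 10 genes in each liver, control in blue and deficient in orange. Symbols mark the array, grey lines join the 2 livers of an array, and black bars give the mean and SD of 4 livers, with a separate vertical scale in each panel. Pemt and Chkb show no overlap between the diets, and deficient 1, the orange square, is the lowest of the 8 livers for 6 of the 10 genes.

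Pcyt1a, which makes CDP-choline, differed by -0.06 ± 0.13 (95% interval -0.34 to 0.23, limma adjusted p = 0.804). On the log2 scale it read 8.86, 9.42, 9.46 and 9.72 in control livers 1 to 4 and 9.35, 9.43, 9.0 and 9.46 in deficient livers 1 to 4. The groups overlapped throughout, and control 1 and deficient 3, which shared array 1, were the lowest of their groups. A dimmer Pcyt1a probe was at -0.05 ± 0.06. Chpt1, the cholinephosphotransferase of the last step, differed by -0.24 ± 0.17 (limma adjusted p = 0.412). Its levels were 11.40, 11.65, 11.70 and 11.85 in controls 1 to 4 and 10.66, 11.81, 11.54 and 11.64 in deficient livers 1 to 4, so deficient 1 alone lay below the control range. Without deficient 1 the Chpt1 difference was 0.0064, and without deficient 2 it was -0.47 and called (limma adjusted p = 0.0183), as it was without array 4 (0.0289).

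Cept1, which can complete both the choline and the ethanolamine route, was at -0.50 ± 0.16 and missed the threshold (limma adjusted p = 0.0836). Control livers 1 to 4 read 8.83, 9.45, 9.40 and 9.69 on the log2 scale, and deficient livers 1 to 4 read 8.19, 9.10, 9.05 and 9.02. Control 1 lay among the deficient livers, and the other 3 controls lay above all of them. The within-array differences were 0.23, -1.22, -0.43 and -0.59. It was called without deficient 2 (limma adjusted p = 0.0162) and without array 4 (0.0316).

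In the ethanolamine route, the kinase Etnk1 rose. The log2 signal was 7.92, 8.08, 8.15 and 8.37 in control livers 1 to 4 and 8.78, 8.54, 8.28 and 8.55 in deficient livers 1 to 4. The groups overlapped by 1 pair of livers, control 4 lying above deficient 3, and each deficient liver exceeded its array partner, by 0.36, 0.63, 0.47 and 0.17. The difference was 1.33-fold (limma adjusted p = 0.0444). The dimmer Etnk1 probe, whose sequence is printed above, gave 0.53 ± 0.20 (limma adjusted p over all probes = 0.198). On that probe deficient 1 was at 8.87 and the other 3 deficient livers at 7.58 to 7.95, against controls at 7.12 to 7.67. Over the 30271 probes the brightest Etnk1 probe had a limma adjusted p of 0.0593, Pemt of 0.0617, Chka of 0.0796 and Chkb of 0.0239. The Etnk1 call held in 8 of 26 alternatives, and among omissions it held without deficient 2, deficient 3, control 4 or array 4. It ended without control 1 (limma adjusted p = 0.17), deficient 1 (0.0697), control 2 (0.154), control 3 (0.204), deficient 4 (0.158), array 1 (0.0849), array 2 (0.127) or array 3 (0.292).

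Pcyt2, which makes CDP-ethanolamine and sets the pace of that route, was at -0.32 ± 0.14 (95% interval -0.64 to 0.0040, limma adjusted p = 0.186). Its log2 levels were 11.20, 11.79, 11.50 and 11.54 in control livers 1 to 4 and 10.67, 11.19, 11.48 and 11.43 in deficient livers 1 to 4. Deficient 1 was again the lowest, and control 1 lay within the deficient range. On arrays 1 to 4 the differences were 0.27, -0.83, -0.36 and -0.35.

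Ptdss1, which makes phosphatidylserine from phosphatidylcholine by base exchange, was at -0.30 ± 0.10 (limma adjusted p = 0.0883). It had log2 levels of 11.48, 11.47, 11.42 and 11.27 in control livers 1 to 4 and 10.93, 11.36, 11.11 and 11.06 in deficient livers 1 to 4. Deficient 2 lay above control 4, its array partner, and the other deficient livers lay below all controls. A dimmer Ptdss1 probe was at -0.42 ± 0.10 (limma adjusted p over all probes = 0.0521), and Ptdss1 was called without deficient 2 (limma adjusted p = 0.0113) and without array 4 (0.0142). Pisd, the mitochondrial phosphatidylserine decarboxylase, was at -0.27 ± 0.16 (limma adjusted p = 0.314). Its levels were 7.31, 7.97, 7.87 and 7.85 in controls 1 to 4 and 6.86, 7.62, 7.70 and 7.75 in deficient livers 1 to 4, and in deficient 1 it was not well above background.

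The 4 arrays did not contribute equally. The difference on array 2 was the largest in size for 9 of the 10 genes, as it was for 50.01% of all genes. The SD of the within-array differences over all genes was 0.312, 0.574, 0.399 and 0.42 on arrays 1 to 4. The median of the 10 genes was 0.24, -0.66, -0.12 and -0.14 on the same arrays. With array 2 left out 0 of the 10 were called by limma (4 at an unadjusted p under 0.05), and with array 3 left out also 0 (4 at an unadjusted p under 0.05), while 6.12% and 1.40% of all genes were. With array 4 or deficient 2 left out 7 of the 10 were called, against 19.3% and 23.9% of all genes.

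Pemt was then set against each gene of the choline route within each liver, as the log2 ratio of the 2 signals. What both share in a liver cancels in this ratio. A change in hepatocyte RNA cancels only as far as both genes follow it alike, and its part was not tested. Levels of different probes are not comparable, so only the change of a ratio between diets is read. The ratio of Pemt to Chka was 4.12, 5.45, 5.26 and 5.08 in control livers 1 to 4 and 1.47, 4.03, 2.95 and 4.14 in deficient livers 1 to 4. The groups overlapped by control 1 and deficient 4 alone, and the mean change was -1.83 ± 0.65 (SE over 4 arrays, exact 2-sided permutation p = 0.0571, adjusted over 5 ratios 0.0952). The ratio to Chkb was 4.73, 5.12, 4.94 and 5.08 in control and 2.63, 3.97, 4.36 and 3.92 in deficient livers 1 to 4. These groups did not overlap, and the change was -1.24 ± 0.40 (exact permutation p = 0.0286, adjusted 0.0714).

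The ratio of Pemt to Chpt1 changed by -0.45 ± 0.07 and its groups did not overlap either (exact permutation p = 0.0286, adjusted 0.0714). It ran from 2.92 to 3.25 in control and from 2.32 to 2.83 in deficient livers. The ratio to Pcyt1a changed by -0.63 ± 0.26 (exact permutation p = 0.114, adjusted 0.143) and that to Cept1 by -0.18 ± 0.08 (exact permutation p = 0.229, adjusted 0.229), both with overlapping groups. All 5 ratios were lower in the deficient liver on 4 of 4 arrays. They share the Pemt signal, itself lower on 4 of 4 arrays, so they are not 5 separate observations. After adjustment by Benjamini-Hochberg 0 of the 5 passed 0.05 in the exact permutation test, and 2 had an unadjusted p under 0.05, at 0.0286. That is the smallest p that 70 arrangements of 4 and 4 livers allow. For 2 of 5 ratios at this smallest p the adjusted p was 0.0714, so 2 alone could not pass however clear their separation. Swapping the 2 livers within arrays gives 16 arrangements, whose smallest p of 0.125 was reached by all 5.

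**Figure D3:**
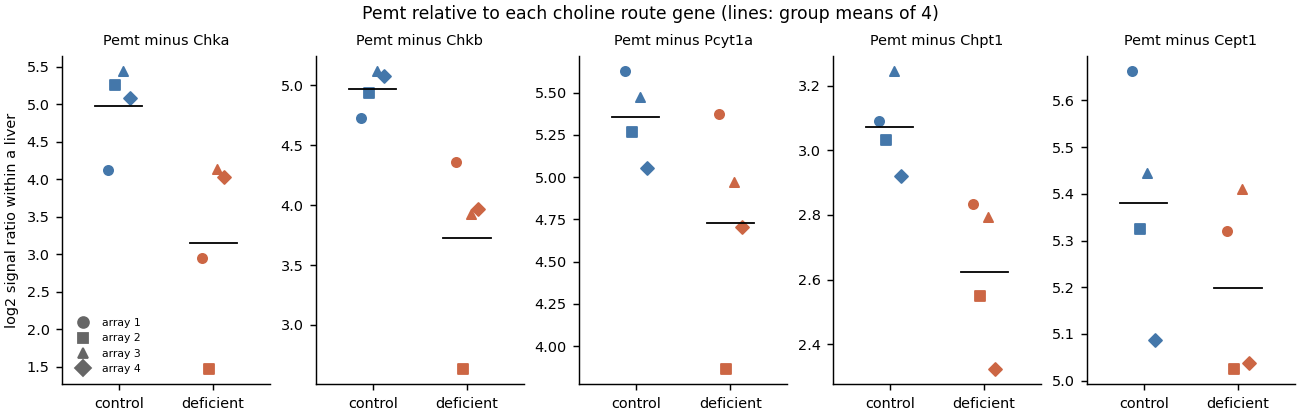
Log2 ratio of the Pemt signal to that of each choline route gene in each liver, control in blue and deficient in orange, with symbols for the array and lines at the mean of 4 livers. The panels have separate scales. The ratios to Chkb and to Chpt1 show no overlap between the diets, and those to Chka, Pcyt1a and Cept1 do.

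Further genes around the pathway were read from the same fit in 6 lists. Of 71 genes 59 were tested, of which 6 rose and 8 fell, so 23.7% of those tested were called, against 11.1% of all genes, 4.52% higher and 6.58% lower. The lists were chosen with earlier results known, and their shares are a description. Among further enzymes of the CDP routes 1 of 7 was called. Etnk2, the ethanolamine kinase abundant in liver, fell by 0.69 on the log2 scale (limma adjusted p = 0.0169), opposite to Etnk1. Its log2 levels were 15.49, 15.44, 15.59 and 15.31 in control livers 1 to 4 and 14.31, 14.94, 14.99 and 14.85 in deficient livers 1 to 4, with no overlap. Lpin1, Lpin2 and Lpin3, which make diacylglycerol, were at -0.21, 0.11 and 0.10 and not called. Of 5 choline transporters tested, 0 were called by limma and 1 had an unadjusted p under 0.05, Slc44a4 at 0.49. Slc44a1, Slc44a2 and Slc44a3 were at -0.08, -0.16 and -0.20.

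In the synthesis of phosphatidic acid and other phospholipids, 2 of 12 genes rose and 1 fell. Cds1, which makes CDP-diacylglycerol for the anionic phospholipids, rose by 0.61 ± 0.07 (limma adjusted p = 0.00279) and Agpat3, an acyltransferase, by 0.47 ± 0.10. Agpat2, the acyltransferase that makes phosphatidic acid, fell by 0.90 (SE 0.22), and Gpam, which acylates glycerol phosphate, was at -0.33. In the remodelling and breakdown of phosphatidylcholine, 3 of 14 genes rose and 1 fell. Pla2g15, the lysosomal phospholipase A2, rose by 0.93 ± 0.11 (limma adjusted p = 0.00279). Its log2 levels were 9.95 to 10.19 in control and 10.71 to 11.35 in deficient livers, and its call held in all 12 omissions of a liver or an array. Pnpla7, a lysophospholipase, rose by 0.85 ± 0.12 and the secreted phospholipase Pla2g12a by 1.01 ± 0.18. Lypla1 fell by 0.41.

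Among genes that transfer, export or use phosphatidylcholine, Sgms1, which takes phosphocholine from it to make sphingomyelin, rose by 0.58 ± 0.11, and Abca1, which exports phospholipid and cholesterol, fell by 0.38. The other 7 of 9 were not called, among them Stard7 at -0.25 and Lcat at -0.19. Of 12 genes that supply or use S-adenosylmethionine, 0 rose, 4 fell and 8 were not called, against 6.58% of all genes called lower. The list's median was -0.30, against 0.01 over all genes. In limma 8 had an unadjusted p under 0.05, as had 4109 of the 14854 genes tested. Among these 8, Nnmt lay higher, at 1.01 ± 0.29, and was not called (limma adjusted p = 0.0585). Gamt, which methylates guanidinoacetate to creatine, fell by 0.88 (SE 0.16). Bhmt, which remethylates homocysteine with betaine from choline, fell by 0.85 (SE 0.21), its relative Bhmt2 by 0.70 (SE 0.14), and Ahcy, which clears S-adenosylhomocysteine, by 0.51 (SE 0.11). As for Pemt, these stand beside the fall of 5 of 8 hepatocyte markers, whose part was not tested. Of the 14 calls in these lists, that of Pla2g15 alone held in every omission. The calls of Cds1 and Pnpla7 were lost without array 3 alone (limma adjusted p = 0.0509 and 0.0647). Those of Pla2g12a and Gamt held in 9 of 12 omissions, and those of Sgms1 and Bhmt2 in 7. Those of Etnk2, Agpat3 and Ahcy held in 6, of Agpat2 and Abca1 in 4, of Bhmt in 3 and of Lypla1 in 2. Bhmt and Agpat2 were lower on 3 of 4 arrays.

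**Figure D4:**
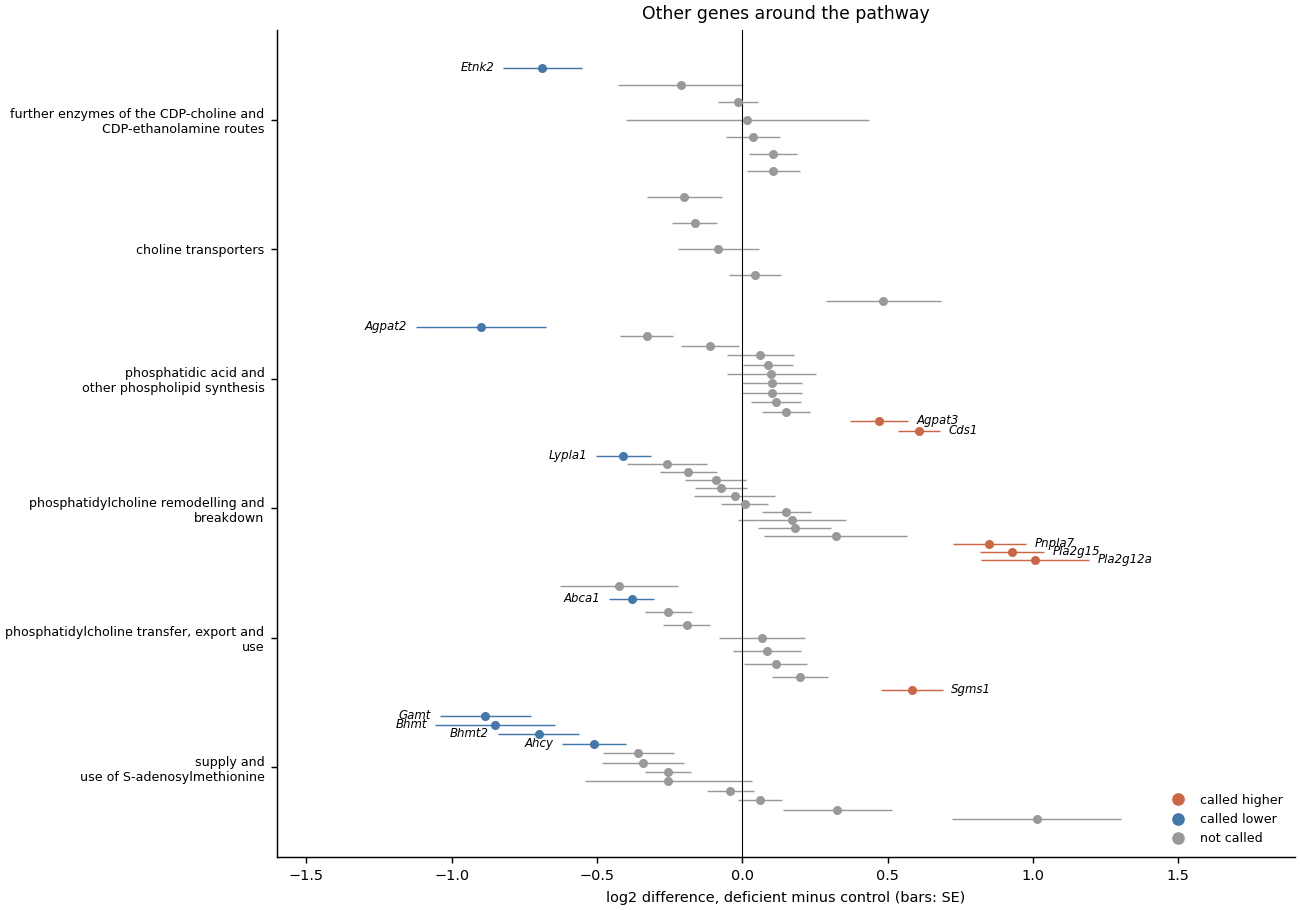
Log2 difference, deficient minus control, of the 59 further genes tested in 6 lists, with bars for the SE of the limma fit. Called genes are coloured and named. The supply and use of S-adenosylmethionine holds 4 called genes, all lower, and remodelling and breakdown holds 3 of the 6 higher calls.

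Across the 8 livers the genes with a symbol whose levels were most like those of Pemt, among 11365, were Cul4a (Pearson r = 0.995), Sdf4 (0.989), Xpo6 (0.989), Plxnb2 (0.989) and Pttg1ip (0.986). Their diet differences were -0.61, -0.31, -0.32, -0.45 and -0.21, of which those of Cul4a and Plxnb2 were called. Among the 10 genes themselves, Pemt correlated most with Pcyt2 (r = 0.942), Cept1 (0.907) and Pisd (0.896), and inversely with Chka (-0.815), Chkb (-0.790) and Etnk1 (-0.748). These values describe 8 livers that share 4 arrays, 2 diets and 1 outlying liver, deficient 1.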

How the data were processed

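The 10 genes and the gene lists were chosen with earlier results of these data known. The authors deposited spot intensities of 4 two-colour Agilent rat arrays, from Agilent Feature Extraction 10.7.1.1 according to the submitters' processing notes and per the file headers, and a table of intensities normalized in a way the labels do not name. The labels give each liver's dye, and livers with identical deposited array data share an array. Replicates are numbered in accession order and do not pair livers. In R 4.3.3, normexp of limma 3.58.1 (offset 50) corrected the mean signals for local background, after 72 spot values with local background over 5 times the channel median were left out, and loess within and Aquantile between arrays followed. Outlier spots were left out, spots of a probe averaged, probes kept if well above background in at least 4 of 8 livers, and the brightest probe of a gene used. Of 30367 probes' genes, 14854 were tested by limma for diet, with a dye term and a random array block (correlation 0.422), and p-values adjusted by Benjamini-Hochberg. A fit over all probes gave the values of single probes. The code was tested on simulated data. Genes named are the 10, up to 4 per list with the smallest p, and the 5 most correlated with Pemt, and others named were chosen after their values were seen. The 26 alternatives changed background, normalization, filter, probe rule, model terms or samples.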

Additional observations from a re-analysis of the deposited data

Results flagged for a closer look

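Among 30 groups of 4 livers examined, formed by the 10 genes and the 5 ratios of Pemt to the choline route in each diet, 2 held a liver farther from the others than Dixon's 95% limit allows, where chance would flag about 1 in 20 groups. Both were deficient liver 1. Its log2 level of Cept1 was 8.19, against 9.02 to 9.10 in the other deficient livers. Its log2 level of Pisd was 6.86, against 7.62 to 7.75, and there the Pisd probe was not well above background.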

How the results depend on the processing

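Of the 10 genes 4 were called, and the count changed with many choices. It was 1 with spots in high background kept, with the scanner software's processed signals, with the authors' deposited table, without a filter on dim probes, without a dye term and with sex added, and 2 with quantile normalization over all channels. Of all genes, 6.41%, 7.45%, 9.55%, 5.27%, 5.66%, 5.57% and 9.84% were called in these settings, in the same order. The count of the 10 was 0 in limma with the array as a fixed block (5 at an unadjusted p under 0.05) and without an array term (6 at an unadjusted p under 0.05), where 469 and 395 of all genes were called. It was 0 to 7 without single livers, 1 without array 1, 0 without array 2, 0 without array 3 and 7 without array 4. Of all genes, 2.50% to 23.9% were called without single livers, and 7.64%, 6.12%, 1.40% and 19.3% without arrays 1 to 4. Of the further genes 14 were called, against 4 with the array as a fixed block, 4 without an array term, 9 with sex added, 22 with sample weights, 3 to 18 without single livers, 6 without array 2 and 2 without array 3. All genes called then numbered 4023 with sample weights and 208 without array 3. Of the 5 ratios of Pemt, 0 passed in the exact permutation test (2 at an unadjusted p under 0.05), against 3 with processed signals, 3 with the authors' deposited table, 3 with the mean over probes and 0 to 3 without single livers. With the mean over probes the ratios to Chkb and Chpt1 were unchanged, at -1.24 and -0.45. They passed there (exact permutation adjusted p = 0.0476) as the ratio to Pcyt1a also reached the smallest p, since 2 alone could not pass. The cause of the other shifts was not tested.

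The direction of Pemt, Chka, Chkb and Etnk1 held in all 26 alternatives. Their differences ran from -0.91 to -0.45, 0.68 to 1.61, 0.42 to 0.68 and 0.29 to 0.56. A fixed array block, no array term or no dye term left these differences unchanged, so the direction could not turn there. Each of these genes also had the same sign on all 4 arrays, so leaving out an array could not turn it. Directions turned for 2 genes that were not called. Chpt1 ran from -0.47 to 0.0064 without single livers and was 0.011 without array 2, and Pcyt1a ran from -0.19 to 0.031 without single livers. Replicate numbers follow accession order and pair no livers. The array, which does, is covered for the genes by the fixed block, which was not applied to the ratios. In the swap within arrays 0 of the 5 ratios passed, and 0 could, since the smallest possible p is 0.125. Only 4 arrays limit the precision.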
